A study of Mus musculus with 6 samples.

Results

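The genes described here serve antigen presentation and the interferon response, and they were followed in the layers of the developing joint of the mouse embryo. They were chosen by a rule on gene names, as every non-control spot of the array whose gene name belongs to the H2 (mouse major histocompatibility complex), Ifi, Ifit, Irf, Oas, Gbp or Isg families, and a few genes that work with them, such as Tap1, Tap2, Psmb8, Psmb9, B2m, Cd74 and Stat2. This rule found 161 spots for 133 probes of 97 genes, out of 35077 genes and gene-like names on the array. Outer interzone, the layer of a future joint that lies against the cartilage, was compared with intermediate interzone, the layer in the middle, in embryos of 15.5 days of gestation, with 3 samples of each. A replicate was 1 embryo, and strain, sex and the joint sampled are not given in the sources used here.

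Class I molecules of the major histocompatibility complex display peptides from inside the cell. A heavy chain pairs with beta-2 microglobulin, the proteasome cuts the peptides, and the transporter made of Tap1 and Tap2 carries them to the chain. Class II molecules display peptides from engulfed material and belong mainly to macrophages, dendritic cells and B cells. Interferons act through Stat and Irf factors to raise many of these genes. Tissue macrophages, which settle in embryonic limbs, express several of them without an interferon signal.

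Signal on the arrays limited which of the 97 genes could be compared. The 75th percentile of processed signal, on which each array was scaled, was 47.4, 290 and 150 intensity units in outer replicates 1, 2 and 3, against 144, 265 and 344 units in intermediate replicates 1, 2 and 3. Outer replicate 1 was thus the dimmest array, with signal well above background at 35.6% of spots, while the other 5 arrays had 45.1% to 53.4%. Gdf5, a growth factor that defines the interzone, had a mean log2 level of 5.69 in both layers. Chondrocyte genes separated the layers, with 10 of 14 tested genes of a chondrocyte list higher in outer interzone and 0 lower. Over all tested genes 1.57% were higher. No spot was saturated.

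Many of the genes best known from an interferon response gave no usable signal. Of the 97 genes, 26 had no signal well above background on the 6 arrays, and another 17 reached it on 1 to 4 arrays without filling a group. Irf7, which amplifies type I interferon production, was among the 26, with Irf4, Ifit1 and Oas3. So were the class II alpha chain H2-Aa and 11 class I chains, namely H2-M1, H2-M9, H2-M11, H2-Q1, H2-T3, H2-T18 and 5 of the H2-M10 genes. H2-DMb2, H2-Ea-ps, H2-Eb2, Oas1g, Oas1h, Gbp2b, Gbp4, Gbp8 and Gbp11 were in that set too.

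The 17 genes with signal on some arrays were H2-M5, H2-T24, Tap1, Cd74, H2-Ab1, H2-Oa, H2-Ob, Ifit3, Ifi27l2b, Ifi44, Oas1d, Oas1e, Oas1f, Oas2, Oasl1, Oasl2 and Gbp3. Cd74, the invariant chain of class II, was well above background on 1 outer and 1 intermediate array, and its probe levels were -2.58, -4.14 and -5.83 in outer interzone and -3.44, -4.41 and -2.49 in intermediate interzone. All levels are log2 signal relative to the array's 75th percentile, for the probe that stands for the gene. H2-Ab1, a class II beta chain, was at -3.97, -6.51 and -4.38 in outer interzone and at -3.80, -6.59 and -1.85 in intermediate interzone. With this probe it was well above background on 0 outer arrays and 1 intermediate array. Tap1 was well above background on 1 outer and 2 intermediate arrays, at -3.55, -4.20 and -4.29 in outer interzone and -3.95, -3.84 and -3.18 in intermediate interzone. Counts of genes above background followed array brightness within each layer, with 38, 64 and 54 of 97 genes on outer replicates 1, 2 and 3 and 56, 64 and 68 on intermediate replicates 1, 2 and 3.

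**Figure D1:**
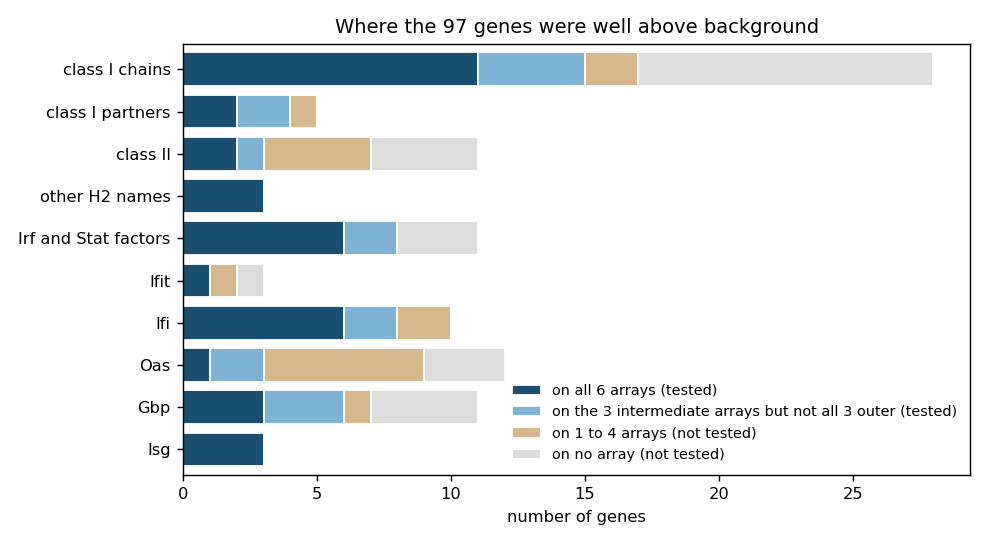
Number of genes (horizontal axis) in each family, split by the arrays on which they were well above background. The 15 tested class I chains stand beside 13 that were not tested, and 9 of 12 Oas genes and 8 of 11 class II genes were not tested.

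The remaining 54 genes had clear signal on every array of 1 or both layers and were tested with limma, with p-values adjusted over all 18004 tested genes. All 54 had signal on the 3 intermediate arrays, and 38 of them also had it on the 3 outer arrays. The other 16 entered through intermediate interzone alone, so a difference in that direction was partly built into their choice. Ifi203 had signal on no outer array, and its bound of at least 2.57-fold lower came with an adjusted p of 0.356.

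Of the 54 tested genes, 10 were lower in outer interzone and 0 were higher at an adjusted p under 0.05. That is 18.5% lower, where 2.48% of all tested genes were lower, 1.57% were higher and 4.05% were called in either direction. At an unadjusted p under 0.05 there were 25 of 54 genes (46.3%), against 21.1% of all tested genes, in both directions together. Among the 38 genes with signal on all 6 arrays, 6 were lower and 0 higher, and 1.27% of all genes with such signal were lower. The median difference, outer minus intermediate, was -0.51 over the 54 genes, -0.23 over the 38 and 0.10 over all genes.

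The layers did not overlap, with outer interzone below, in 21 of the 54 genes (38.9%), against 11.5% of all tested genes. Outer interzone lay above without overlap in 5 genes (9.26%), against 15.6% of all. For the 16 genes that entered through intermediate interzone alone, the first direction was partly built in. Among the 38 genes with signal on all 6 arrays, outer interzone lay below without overlap in 14 and above in 4. Among all 14775 genes with such signal, it lay below in 1333 and above in 2444. Samples of the same replicate number resembled each other, and a fit that blocks on that number found 22 genes lower and 0 higher, where 4.44% of all genes were lower and 4.64% higher. All 10 genes were among those 22. The other 12 were H2-K1, H2-K2, H2-Bl, H2-Q2, H2-Q5, H2-Q6, H2-T23, H2-Eb1, Gbp2, Ifi27l2a, Isg20 and Oas1a. Slide and replicate number were also blocked together, and that layer difference is outer replicate 1 against intermediate replicate 1 alone. There 3 genes were lower, namely H2-Bl, Ifi202b and Ifi204, and 2.26% of all genes were lower. The other calls of the replicate block were not kept in that fit. On outer replicate 1, H2-Bl and Ifi204 were at -2.95 and -1.99, below the array's lowest signal well above background, -1.81. A single pair of arrays cannot decide which calls hold. Slide 1 held the 3 intermediate arrays and a single outer array, outer replicate 1, the dimmest. Within it that array was assumed to vary like the intermediate arrays. There 10 genes were lower, against 4.42% of all genes, and 2, Gbp6 and Gbp10, were higher, against 2.88% of all, and 6 of the 10 genes were called again. The fit with slide alone as a block rests on that same outer array. Single arrays weighed on the count, with 5, 8 and 1 genes lower without outer replicate 1, 2 or 3 and 2, 5 and 1 lower without intermediate replicate 1, 2 or 3. Ifi202b was lower in each of these 6 fits, and the call of the other 9 genes was lost without outer replicate 3 and without intermediate replicate 3. Over all genes the count was then 90 and 66 in place of 729.

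**Figure D2:**
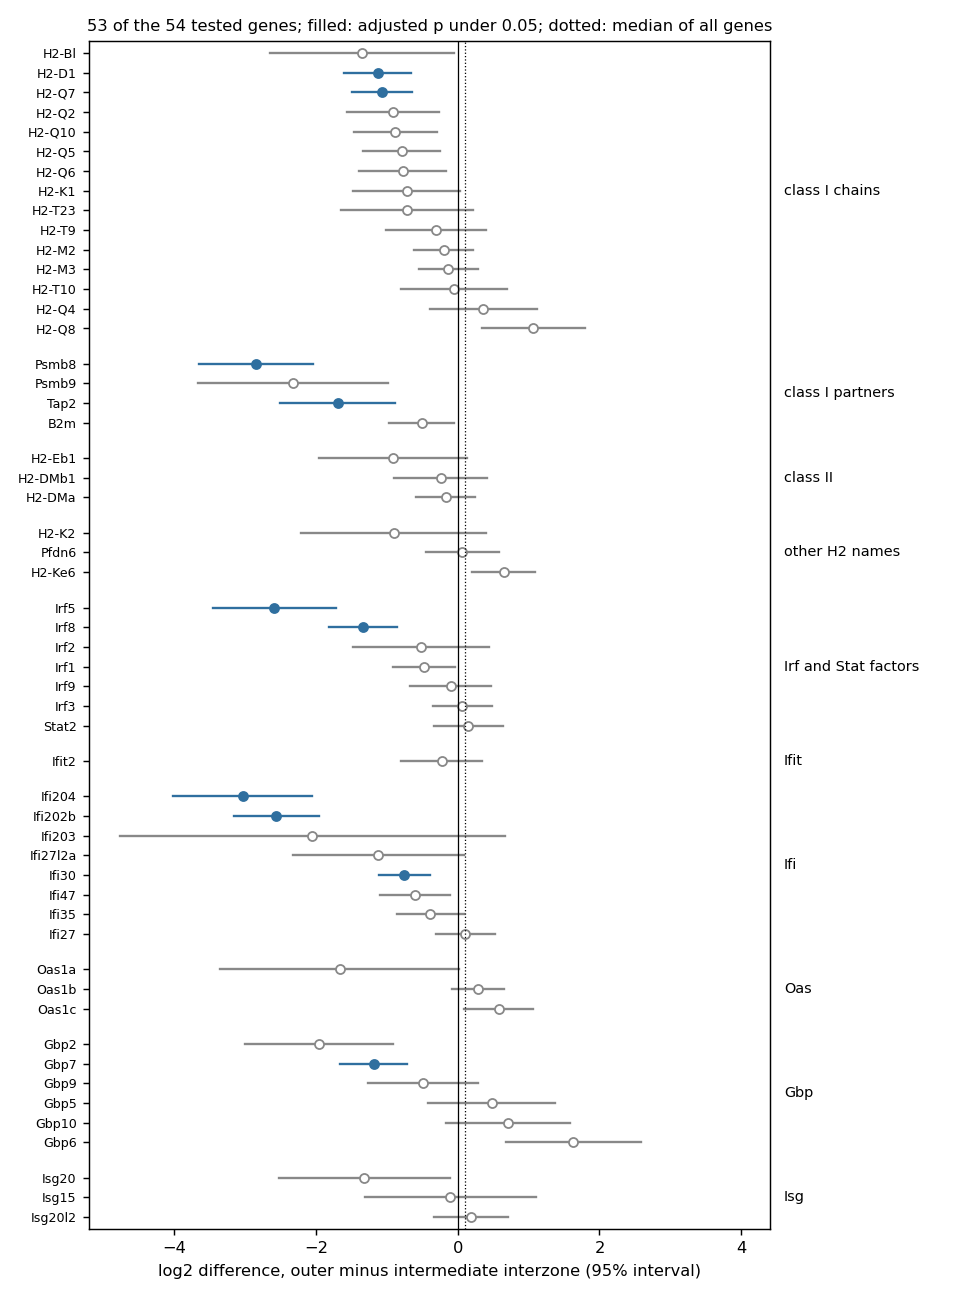
Log2 difference, outer minus intermediate (horizontal axis), with its 95% interval for 53 of the 54 tested genes, by family. The 10 filled points, all left of 0, passed an adjusted p under 0.05, and Gbp6 at 1.63 had the largest difference in the other direction.

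Among the class I chains, which cells carry on their surface, H2-D1 and H2-Q7 were called lower. H2-D1 is a classical heavy chain. The H2-D1 probe (mm9 chr17:35403886-35403945) had levels of 1.36, 1.59 and 1.93 in outer interzone, against 2.79, 2.62 and 2.86 in intermediate interzone. Each outer sample was below each intermediate sample, and the difference was -1.13 ± 0.20 (SE), 2.18-fold lower, with an adjusted p of 0.0322. The H2-D1 call was kept in 9 of 17 alternative settings and lost in each fit that left out an array. H2-Q7, a nonclassical chain of the Qa region (chr17:35580315-35580374), had levels of 0.81, 0.86 and 1.20 in outer interzone, against 2.03, 1.91 and 2.12 in intermediate interzone. Its layers were apart by -1.07 ± 0.18, with an adjusted p of 0.0272. The H2-Q7 call was kept in 10 of 17 alternative settings. Of the fits that left out an array, only the fit without outer replicate 2 kept it.

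H2-K1, the other classical heavy chain of this array, had levels of 2.02, 1.65 and 2.41 in outer interzone and 2.66, 2.27 and 3.31 in intermediate interzone. Its layers overlapped and its difference of -0.72 had an adjusted p of 0.258, while the same-numbered samples each ran lower in outer interzone and the blocked fit gave an adjusted p of 0.0448, which became 0.217 with slide blocked as well. A second H2-K1 probe gave -0.97. Not every chain ran this way. H2-Q4 had levels of 4.51, 3.84 and 4.38 in outer interzone and 3.98, 3.30 and 4.36 in intermediate interzone, a difference of 0.36 with an adjusted p of 0.552.

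Over the 15 tested class I chains, 2 were lower and 0 higher, where 2.48% of all tested genes were lower, and the median difference was -0.72. With the replicate block 8 chains were lower, where 4.44% of all tested genes were lower and 4.64% higher. The differences ran between -1.35 and 1.07, and 2 of the 15 were above 0. The upper end was H2-Q8, named after its value was seen, with signal on all 6 arrays. Its layers did not overlap, with outer interzone above, and its adjusted p was 0.113. Class I chains are near-identical copies of each other in places, so a probe may also read its neighbours, and a call for a single chain is uncertain to that extent.

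The genes that work with the class I chains included the largest differences of the antigen presentation genes. Psmb8 is a catalytic subunit of the immunoproteasome, the form of the proteasome that cells of the immune system carry and that interferon gamma raises elsewhere. Its probe (chr17:34337771-34337830) had levels of -4.05, -2.96 and -4.00 in outer interzone, against -1.15, -0.86 and -0.46 in intermediate interzone. The layers were far apart, by -2.85 ± 0.34, with an adjusted p of 0.0124. Psmb8 was well above background on only 1 outer array, and the value of outer replicate 1 lay where genes without signal lie on that array, between -4.13 and -3.46. Without outer replicate 1 the difference was -2.66, with an adjusted p of 0.0204. With quantile normalization the difference was no longer called, at an adjusted p of 0.0624. With normexp correction and quantile normalization together it was -1.20, also lower.

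Psmb9, the neighbouring immunoproteasome subunit, had levels of -4.07, -1.64 and -3.04 in outer interzone, against -0.80, -0.73 and -0.25 in intermediate interzone. The layers did not overlap, but the outer samples were spread widely and the difference of -2.33 ± 0.57 had an adjusted p of 0.0759. Psmb9 had signal on 2 of the outer arrays, and outer replicate 1 lay at that array's background. It was called without outer replicate 2, at -2.96 with an adjusted p of 0.0130. Without outer replicate 1 it was not called, and leaving out single arrays gave differences of -2.96 to -1.75. The 14 subunits of the constitutive proteasome core, which every cell uses, gave 0 calls and a median difference of -0.06. Psmb5, whose place in the core Psmb8 takes in the immunoproteasome, had levels of 6.40, 7.13 and 6.77 in outer interzone and 6.51, 7.03 and 6.59 in intermediate interzone.

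Tap2 (chr17:34353116-34353175), a subunit of the peptide transporter, had levels of -1.48, -1.20 and -1.37 in outer interzone, against -0.09, -0.03 and 1.15 in intermediate interzone. Its difference was -1.69 ± 0.34, with an adjusted p of 0.0461. The call was kept in 6 of 17 alternative settings. It was lost in each fit that left out an array, and with the slide block at 0.0798 and both blocks at 0.189. B2m, the light chain of every class I molecule, had levels of 4.06, 4.15 and 4.49 in outer interzone, against 4.70, 4.58 and 4.95 in intermediate interzone. The layers did not overlap, but the difference of -0.51 ± 0.20 had an adjusted p of 0.200. Of the 4 tested partners 2 were lower, where 2.48% of all tested genes were, and the median difference was -2.01. Psmb8 and Psmb9 entered through intermediate interzone alone, so their direction was partly built in. With signal required on all 6 arrays 1 partner was lower, and the median was -1.10.

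**Figure D3:**
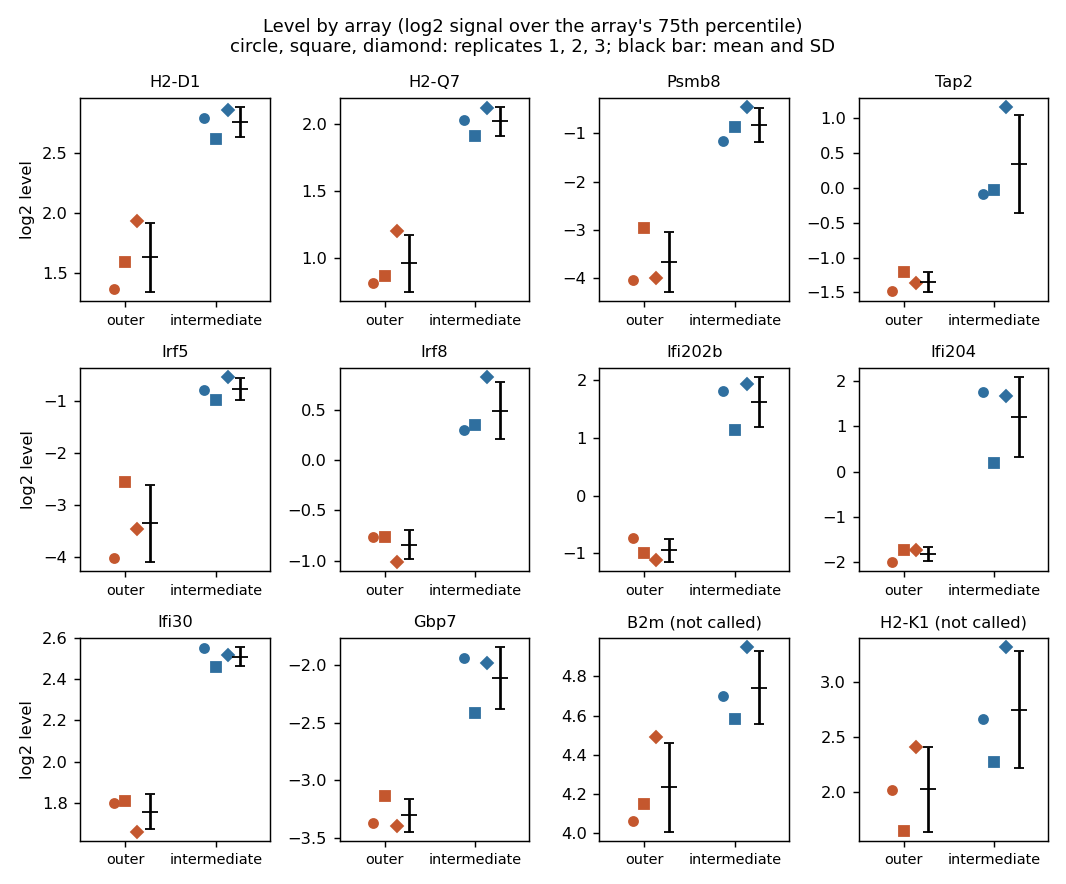
Log2 level (vertical axis, a scale of its own in each panel) of the 10 genes called lower, and of B2m and H2-K1, in outer (left) and intermediate (right) interzone, with each array as a point and the mean and SD of 3 arrays beside it. Each outer point lies below each intermediate point in 11 of the 12 panels, and in H2-K1 the layers overlap. All 729 called genes of these arrays had layers that did not overlap, so for the 10 called genes the separation adds nothing to the call.

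Class II genes were mostly at background, and 3 of 11 could be tested. None passed the test. H2-DMa, which helps load peptides onto class II, had levels of -1.29, -1.34 and -1.70 in outer interzone and -1.29, -1.25 and -1.27 in intermediate interzone. Its partner H2-DMb1 differed by -0.24 with an adjusted p of 0.656, and its layers overlapped. H2-Eb1, a class II beta chain, had levels of -3.91, -3.24 and -2.39 in outer interzone and -2.76, -2.41 and -1.63 in intermediate interzone. It had signal on 2 of the outer arrays, and outer replicate 1 lay at that array's background. The difference of -0.91 had an adjusted p of 0.292, 0.0379 with the replicate block and 0.0771 with both blocks.

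3 more H2 names sit in the same region of chromosome 17, and H2-K2 was one of them, with a difference of -0.90 and layers that overlapped. Pfdn6, a subunit of the prefoldin chaperone that the array lists under an H2 name, had a difference of 0.06 and an adjusted p of 0.898. H2-Ke6, a mitochondrial dehydrogenase, had levels of 2.86, 2.42 and 2.54 in outer interzone and 1.83, 2.10 and 1.95 in intermediate interzone. Its layers did not overlap, with outer interzone above, and the difference of 0.65 had an adjusted p of 0.114.

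Among the transcription factors, Irf5 and Irf8 were lower in outer interzone. Irf5 acts downstream of Toll-like receptors in macrophages and dendritic cells. Its probe (chr6:29486901-29486960) had levels of -4.03, -2.56 and -3.47 in outer interzone, against -0.78, -0.98 and -0.54 in intermediate interzone. The difference was -2.59 ± 0.37, with an adjusted p of 0.0181. Irf5 had signal on 2 of the outer arrays, and without outer replicate 1, which lay at that array's background, the difference was -2.25 with an adjusted p of 0.0209. With quantile normalization the call was lost, at an adjusted p of 0.0954, and with normexp correction and quantile normalization together the difference was -1.11, also lower.

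Irf8 (chr8:123280324-123280383) directs the development of macrophages and dendritic cells. It had levels of -0.76, -0.76 and -1.01 in outer interzone, against 0.30, 0.35 and 0.82 in intermediate interzone. All 6 arrays carried signal, and the difference was -1.33 ± 0.20 with an adjusted p of 0.0215. The call was lost with slide as a block, at 0.0573, and with both blocks, at 0.150.

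The other factors did not pass. Irf1, which interferon gamma raises elsewhere, had levels of 2.41, 2.68 and 2.23 in outer interzone, against 2.87, 3.06 and 2.81 in intermediate interzone. Its layers did not overlap, and the difference of -0.47 had an adjusted p of 0.207. Irf3, which cells carry before any signal, had levels of 4.51, 4.17 and 4.18 in outer interzone and 4.21, 4.32 and 4.13 in intermediate interzone. Stat2 had levels of 1.15, 0.86 and 1.05 in outer interzone and 0.61, 0.80 and 1.19 in intermediate interzone. Stat2 and Irf3 each had overlapping layers, with differences of 0.15 and 0.07. Of the 8 tested factors 2 were lower, with a median difference of -0.29. With signal required on all 6 arrays 1 was lower, Irf8, and the median was -0.015.

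The Ifi genes held the largest difference among the 10 called genes. Ifi204 and Ifi202b, neighbours on chromosome 1, belong to a family of nuclear proteins that bind DNA and that interferon raises in blood cells. Ifi204 (chr1:175677647-175677706) had levels of -1.99, -1.74 and -1.73 in outer interzone, against 1.76, 0.20 and 1.67 in intermediate interzone. The difference was -3.04 ± 0.41 with an adjusted p of 0.0169, and a second probe gave -2.96. Its signal was well above background on 2 of the 3 outer arrays, and with normexp correction and quantile normalization together the difference was -2.23.

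Ifi202b (probe within chr1:175892953-175893982) had levels of -0.73, -1.0 and -1.11 in outer interzone, against 1.80, 1.13 and 1.92 in intermediate interzone. All 6 arrays carried signal, the difference was -2.56 ± 0.25 with an adjusted p of 0.0074, and a second probe gave -2.52. Ifi202b was called lower under 16 of 17 alternative settings, more than any other of the 10 genes. The 2 genes belong to a family of similar sequences, so their probes may share signal.

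Ifi30, a lysosomal reductase that opens disulfide bonds of engulfed proteins for class II presentation, was the third. Its probe (within chr8:73287747-73288473) had levels of 1.80, 1.81 and 1.66 in outer interzone, against 2.55, 2.46 and 2.52 in intermediate interzone. The samples of each layer lay close together, and the difference was -0.75 ± 0.15 with an adjusted p of 0.0465. The call was lost with slide as a block, at 0.109, and with both blocks, at 0.162. Ifi27, an interferon-induced protein of mitochondria in other cells, had levels of 4.99, 5.20 and 5.20 in outer interzone and 4.89, 5.24 and 4.95 in intermediate interzone, and its layers overlapped. Of the 8 tested Ifi genes 3 were lower, with a median difference of -0.94. The median was -0.68 with signal required on all 6 arrays.

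The guanylate-binding proteins, GTPases that attack the membranes around microbes inside cells, ran in both directions. Gbp7 (chr3:142209379-142209438) had levels of -3.37, -3.14 and -3.40 in outer interzone, against -1.94, -2.42 and -1.98 in intermediate interzone. The difference was -1.19 ± 0.20 with an adjusted p of 0.0257. Gbp7 was a faint gene, with signal on 2 of the outer arrays, and with normexp correction and quantile normalization together it was no longer called, at -0.46 with an adjusted p of 0.0958. With slide as a block its adjusted p was 0.0542.

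Gbp6 had levels of -0.29, -1.67 and -0.59 in outer interzone, against -2.36, -2.08 and -3.00 in intermediate interzone. Its layers did not overlap, with outer interzone above. The difference of 1.63 ± 0.40 had an adjusted p of 0.0789, and it was called higher without outer replicate 2, at 2.04 with an adjusted p of 0.0223. Gbp5 had levels of -1.14, -1.68 and -0.33 in outer interzone and -1.21, -2.02 and -1.36 in intermediate interzone, with a difference of 0.48 and layers that overlapped. Of the 6 tested Gbp genes 1 was lower and 0 higher, with 2 lower in the blocked fit, where 4.44% of all genes were lower. With signal required on all 6 arrays 0 were called.

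The Oas, Ifit and Isg genes, whose products act against viruses, gave no call. Oas1b had levels of 4.96, 4.81 and 4.77 in outer interzone, against 4.54, 4.59 and 4.55 in intermediate interzone. Outer interzone lay above without overlap by 0.29, with an adjusted p of 0.334. Oas1a, by contrast, had levels of -3.96, -1.80 and -1.73 in outer interzone and -1.86, -0.72 and 0.10 in intermediate interzone. Oas1a had signal on 2 of the outer arrays, and outer replicate 1 lay at that array's background. Its difference of -1.67 had an adjusted p of 0.243, 0.0339 with the replicate block and 0.0541 with both blocks. Ifit2, the 1 tested gene of 3 in its family, had a difference of -0.23 and an adjusted p of 0.629.

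Isg15, a ubiquitin-like protein that interferon raises strongly in most cells, had levels of -0.97, -0.63 and 0.22 in outer interzone and -1.37, -0.19 and 0.49 in intermediate interzone. The layers overlapped, and the difference of -0.10 had a 95% interval of -1.31 to 1.11. Isg20, an RNA-degrading enzyme, had levels of -1.50, -0.41 and -0.01 in outer interzone, against -0.01, 0.47 and 1.58 in intermediate interzone. Its difference of -1.32 had an adjusted p of 0.202, 0.0349 with the replicate block and 0.0874 with both blocks. Isg20l2 had a difference of 0.18, with an adjusted p of 0.666.

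Promoter sequence was available for 68 of the 97 genes, in RefSeq's tables for GRCm38.p6, and the 250 bases before each start were searched on both strands for a pair of short motifs. The interferon-stimulated response element core was taken as GAAANNGAAA, which type I interferon factors bind, and the gamma-activated site core as TTCNNNGAA, which Stat factors bind. The response element core was in 17 of the 68 genes, against 3.46% of all genes with a promoter, and the activated site core was in 13 of 68, against 8.13%. Of the 10 genes called lower 8 had a promoter in the tables. The response element core was in 1 of these 8, Gbp7, and the activated site core in 4, Gbp7, Ifi202b, Irf8 and Psmb8. Among the 29 promoters of genes that were not tested, 6 held the response element core, including those of Ifit1, Ifit3 and Oas3. The windows below run 5′ to 3′ on the strand of the gene, with the motif in capitals. They are shown because they set genes called lower beside B2m and Isg15, which did not pass the test, and Ifit1, which had no signal. A match of letters is a description and does not show that a factor binds there.
Psmb8, gamma-activated site, chr17:34198088-34198116: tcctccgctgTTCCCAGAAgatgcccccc
Irf8, gamma-activated site, chr8:120736177-120736205: caaaagtgatTTCTCGGAAagagagcgct
Ifi202b, gamma-activated site, chr1:173982974-173983002: ctgtcatgatTTCTCAGAAtaactactga
Gbp7, gamma-activated site, chr3:142530239-142530267: aagcagaagcTTCTCAGAAagtcagcaca
Gbp7, response element, chr3:142530273-142530302: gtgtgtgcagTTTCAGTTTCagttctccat
B2m, response element, chr2:122147538-122147567: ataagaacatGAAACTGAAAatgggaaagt
Isg15, response element, chr4:156200865-156200894: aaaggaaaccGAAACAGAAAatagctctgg
Ifit1, response element, chr19:34640794-34640823: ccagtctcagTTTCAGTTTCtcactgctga
In Gbp7 the response element is read on the opposite strand, as in Ifit1. B2m and Isg15 carry it on the strand of the gene. A window without such letters says nothing about the factor.

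Genes of the same pathways outside these families were examined as 5 lists, and they were chosen with results of these arrays known. Beside the counts of these and the marker lists, 2.48% of all tested genes were lower and 1.57% higher. With the replicate block these shares were 4.44% and 4.64%. Of 18 other antigen processing genes 14 were tested and 2 were lower, 3 in the blocked fit. Ctss, a lysosomal protease that trims the invariant chain, had levels of -2.84, 0.49 and -0.75 in outer interzone, against 2.46, 2.55 and 3.27 in intermediate interzone, a difference of -3.79 with an adjusted p of 0.0466. Ctss had signal on 2 of the outer arrays, and outer replicate 1 lay below that array's lowest signal well above background, -1.81. Lgmn, a lysosomal protease as well, had levels of 3.40, 4.10 and 3.92 in outer interzone, against 5.51, 5.42 and 5.92 in intermediate interzone, a difference of -1.81 with an adjusted p of 0.0167. Both proteases are abundant in macrophages. The median of the 14 genes was -0.09, and Ciita and Nlrc5, the master regulators of class II and class I genes, were not tested for lack of signal.

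Most interferon genes gave no signal. Ifnb1, Ifng, Ifna4, Ifnk and Ifne were not well above background in any sample. Ifna1 and Ifnl3, named after their values were seen because they alone of the ligands could be tested, did not pass, with adjusted p-values of 0.497 and 0.207. Ifna1 had levels of -1.91, -2.89 and -3.08 in outer interzone and -3.29, -3.63 and -2.52 in intermediate interzone, with layers that overlapped. Ifnl3 had levels of -0.87, -1.69 and -1.43 in outer interzone, against -1.82, -2.09 and -1.92 in intermediate interzone, with outer interzone above. Of 13 tested interferon ligands, receptors, kinases and regulators, out of 19 genes of that list on the array, 1 was lower and 0 higher, 3 in the blocked fit, and the median difference was -0.44. The lower gene was Il10rb, a receptor chain shared by interleukin 10 and the lambda interferons, with levels of -1.96, -1.48 and -1.78 in outer interzone, against -0.27, -0.62 and 0.07 in intermediate interzone. Its difference was -1.47 with an adjusted p of 0.0246. Il10rb had signal on 2 of the outer arrays, and outer replicate 1 lay below that array's lowest signal well above background, -1.81. None of 10 tested sensors of foreign nucleic acid passed, with a median difference of 0.06. Tlr9, a sensor of DNA, differed by 0.41 with an adjusted p of 0.470.

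Of 38 other interferon-induced genes 30 were tested, 5 were lower and 1 was higher, and 10 were called in the blocked fit. Trim30a had no signal on any outer array and was at least 2.03-fold lower, with an adjusted p of 0.0370, which became 0.0514 in the blocked fit. Parp14 had levels of -3.90, -3.18 and -2.71 in outer interzone, against -1.63, -1.15 and -0.08 in intermediate interzone, with an adjusted p of 0.0439. Lgals9, a lectin of immune and endothelial cells, had levels of -3.81, -2.08 and -2.14 in outer interzone, against -0.47, -0.47 and -0.35 in intermediate interzone, with an adjusted p of 0.0460. On outer replicate 1 Parp14 and Lgals9 lay below that array's lowest signal well above background, -1.81. The other calls, named because they complete the count, were Rsad2 and Ifitm3, lower by -1.97 and -1.05, and Uba7, which activates Isg15 for its attachment, higher by 1.26. Mx1, Mx2, Cxcl9, Cxcl10, Usp18, Tgtp1, Epsti1 and Plac8 were not tested for lack of signal. The median of the 30 genes was -0.42.

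Markers of macrophages and of blood vessels were mostly lower in outer interzone. Of 20 macrophage and myeloid markers 18 were tested, 14 were lower in outer interzone and 0 higher, and the median difference was -3.13. A single tested marker ran the other way, by 0.76, and was not called. The mean level over this list was -1.32, 0.06 and -0.91 on the outer arrays, against 1.99, 1.77 and 2.41 on the intermediate arrays. Cx3cr1, a chemokine receptor of tissue macrophages, had levels of -1.75, 1.52 and -0.07 in outer interzone, against 3.39, 3.56 and 4.54 in intermediate interzone. Mrc1 and C1qa, a scavenging receptor and a complement subunit of tissue macrophages, differed by -3.83 and -3.78. The macrophage markers Fcgr1 and Spi1 were not tested for lack of signal, and Lyz2 had signal on no outer array.

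Of the 12 endothelial markers, all tested, 8 were lower and 0 higher, 11 in the blocked fit, with a median difference of -2.32. Their mean level was -0.64, 0.50 and 0.16 on the outer arrays, against 2.07, 1.93 and 2.34 on the intermediate arrays. A single endothelial marker ran the other way, by 0.82, and was not called in the main fit. Emcn, Tek and Tie1, membrane proteins of vessel walls, differed by -2.93, -2.92 and -2.67, with adjusted p-values of 0.0081, 0.00907 and 0.0167. The 10 genes called lower had mean levels of -1.24, -0.91 and -1.13 on the outer arrays, against 0.73, 0.44 and 1.01 on the intermediate arrays. They were picked as lower in outer interzone, so this direction was set by the choice. The part of macrophages or vessels in the lower levels of the 10 genes was not tested. In whole tissue RNA, fewer cells of a type and less RNA per cell cannot be told apart.

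Markers of lymphocytes and dendritic cells were mostly too dim to test. Of 11 T and NK cell markers 4 were tested and none passed, with a median difference of 0.68, and Cd3d, Cd3g, Cd8a and Cd8b1 had too little signal for the test. Cd4, one of those tested, differed by 0.56 with an adjusted p of 0.196. Of 12 dendritic and B cell markers 2 were tested and 1, Cd79b, was lower by -2.06 with an adjusted p of 0.0219. The other tested marker ran the other way, by 1.34, and did not pass. Flt3, Xcr1, Clec9a and Ms4a1 were not tested for lack of signal.

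Other cell types were read from 4 further lists. The 14 chondrocyte markers had mean levels of 3.75, 3.56 and 3.45 on the outer arrays, against 0.23, 0.65 and 0.00 on the intermediate arrays, and Ucma, Matn1 and Cytl1 differed by 6.50, 6.0 and 5.91. Of 10 interzone markers 1 was lower, Gdf6 by -1.77, and 2 were higher, Wnt4 by 3.41 and Erg by 0.95. None of 7 tested skeletal muscle markers and none of 5 tested erythroid markers passed. Both lists were far lower on outer replicate 1 than on the other outer arrays, at -2.72, 0.89 and 1.08 for muscle and 1.67, 6.02 and 5.97 for erythroid genes. On the intermediate arrays the means were -0.97, 0.98 and 2.06 for muscle and 4.99, 6.99 and 7.01 for erythroid genes. Tnnt1 and Hba-a1, from these lists, had adjusted p-values of 0.801 and 0.397.

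**Figure D4:**
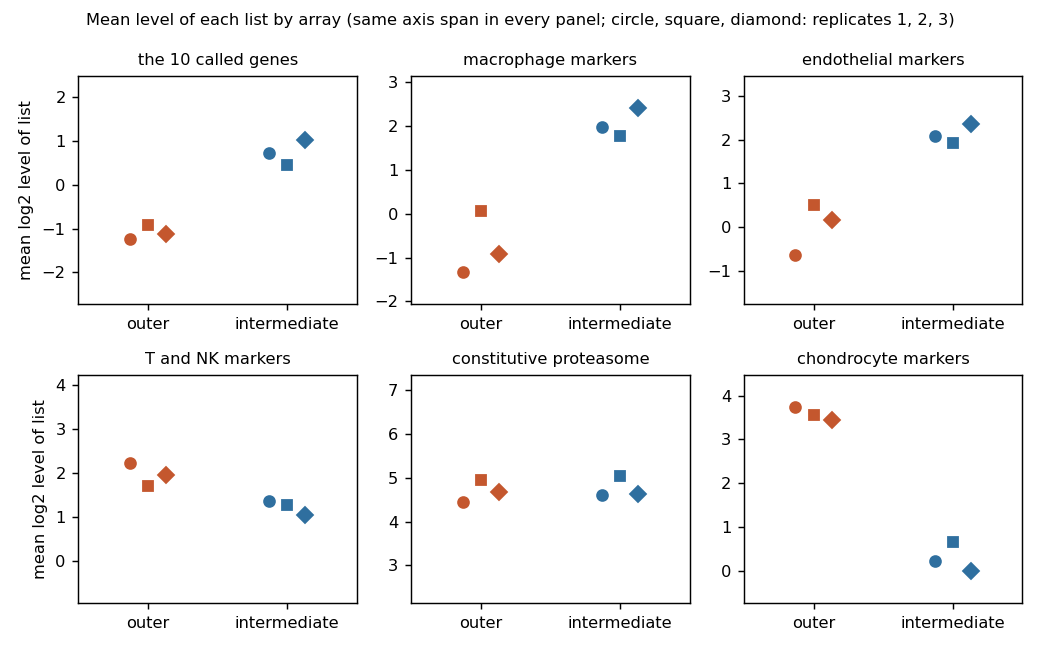
Mean log2 level (vertical axis, the same span in each panel) of the 10 genes called lower and of 5 lists, on the 3 outer (left) and 3 intermediate (right) arrays, each array a point. The called genes, macrophage markers and endothelial markers lie lower in outer interzone, chondrocyte markers lie higher, and the constitutive proteasome overlaps. The called genes were picked as lower, so the direction of their panel was set by that choice.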

How the data were processed

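Total RNA of outer and intermediate interzone was amplified, labelled with Cy3 and hybridised to 1-colour Agilent arrays, per the labels' protocols. The deposited scanner files give each spot an intensity, processed and background-subtracted by Agilent Feature Extraction 10.7.3.1, and each probe a position in build mm9, per the file headers. Partek 6.11.0321 is named as well, per the submitters' processing notes. The authors' deposited table holds the same intensity divided by a constant for each array, so that each column has a median of 1.

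Non-control spots (59305, for 55681 probes) without outlier flags were averaged per probe as log2 signal and scaled to each array's 75th percentile. A probe entered the test if every array of 1 layer or both showed it well above background, and each gene was read by its brightest tested probe. Symbols were updated through RefSeq accessions, which renamed Ifi27, H2-Q4, Gbp2b and Pfdn6 among the genes described. In 8 genes several probes were tested, and in 0 of them did the signs differ. Differences are outer minus intermediate, from limma's moderated test (version 3.58.1, R 4.3.3), two-sided and with Benjamini-Hochberg adjustment over 18004 genes, and the fit was tested on simulated data. Intervals are 95% intervals, and 3 arrays per layer limit their precision. A bound for a gene without signal in a layer sets the other layer's mean against, per array, the higher of the gene's own value and the lowest signal well above background.

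Replicate numbers come from the labels. The labels do not say that equal numbers mark the same embryo. After layer means were subtracted, same-numbered samples correlated across genes at 0.563, 0.480 and 0.371, and different numbers at 0.114 or less. From these correlations the numbers were taken to pair the samples, and a fit blocked on that number is given where it changes a call. Replicate 1 was the dimmest array of each layer, with 75th percentiles of 47.4 and 144 units. The part of brightness in the resemblance was not tested. Slide 1 held outer replicate 1 and the intermediate arrays, and slide 2 held the other outer arrays. The genes, lists and rules were chosen with earlier results of these data known. Named with values were the called genes, the 2 brightest tested genes of each family, 17 genes fixed by name, and up to 3 called genes of each list. Alternatives were other scalings, background correction, filters and probe summaries, blocks for slide and replicate, and leaving out each array. Some results on single genes are not reported here.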

Additional observations from a re-analysis of the deposited data

How the results depend on the processing

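Every one of the 10 called genes kept a difference below 0 under each of the 17 alternatives in which it was tested. Their layers did not overlap in the main fit, so leaving out or blocking arrays could not turn the sign. The call was kept in 97 of 166 such fits. The number of genes lower in outer interzone, 10 of 54, was 15 with scaling to the median and with the authors' deposited values, 7 with quantile normalization, 9 with normexp correction (offset 50) and quantile normalization together, 6 with signal required on all 6 arrays, 22 with the replicate block (4.44% of all genes), 9 when slide was a block, 3 with the slide block and replicate block together, and 1 to 8 when single arrays were left out. Without a filter on dim probes no gene of any kind was called (0 of 97), with 21 of the 97 genes (21.6%) at an unadjusted p under 0.05, against 12.2% of all genes. The number higher, 0, was 1 with the mean of a gene's probes, 2 within slide 1, and 0 to 1 when single arrays were left out. The median difference of -0.51 was -0.91 with the authors' deposited values and with scaling to the median, -0.67 with quantile normalization, -0.049 without a filter, -0.23 with signal on all 6 arrays and -0.65 to -0.44 with single arrays left out. The median of all genes was 0.10 and shifted to -0.29 with scaling to the median, so differences of the named genes shifted with it. Over all genes, 729 calls (447 lower, 282 higher) became 1096 with either of these scalings (938 lower, 158 higher), 451 with quantile normalization, 460 with signal on all 6 arrays, 1636 with the replicate block, 1215 when slide was a block, 1314 within slide 1, and 66 to 1111 with single arrays left out. The causes of these shifts were not tested, beyond the fewer genes and samples that some alternatives hold.

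Signs turned in genes that passed no test. With scaling to the median and with the authors' deposited values the differences were -0.33 for Pfdn6, -0.29 for Ifi27, -0.32 for Irf3, -0.21 for Isg20l2, -0.11 for Oas1b, -0.028 for H2-Q4, -0.24 for Stat2 and -0.33 for Psmb5. With quantile normalization they were -0.00039 for Irf3 and -0.11 for Psmb5, and with normexp correction and quantile normalization together -0.0094 for Ifi27, -0.019 for Irf3 and -0.12 for Psmb5. With the slide block and within slide 1 they were -0.035 for Ifi27, 0.13 for Ifit2 and -0.31 for Psmb5. With the slide block and replicate block together they were 0.0061 for H2-DMa, 0.40 for Isg15 and -0.10 for Psmb5, and with the mean of probes -0.0097 for Psmb5. Leaving out single arrays gave -0.11 to 0.21 for Pfdn6, -0.045 to 0.13 for Irf3, -0.014 to 0.31 for Isg20l2, -0.61 to 0.32 for Isg15, -0.12 to 0.24 for Psmb5 and -1.5 to 0.53 for Tnnt1.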
